A study of Homo sapiens with 6 samples.

Results

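The genes examined here are 10 genes of the cell's oxygen-sensing system: the hypoxia-inducible factor (HIF) subunits HIF1A, EPAS1 and ARNT, the oxygen sensors EGLN1, EGLN2, EGLN3 and HIF1AN, the ubiquitin ligase subunit VHL, and the mitophagy receptors BNIP3 and BNIP3L. They were chosen by name, and all 10 were found among the 34917 genes to which the deposited transcripts were assigned. RNA came from THP-1, a human acute monocytic leukaemia line that grows in suspension, obtained from 2 cell banks, DSMZ in Germany and ATCC in the United States, with 3 libraries for each bank. Both stocks were left untreated, were grown in parallel in RPMI medium with 20% fetal bovine serum at 37 °C and 5% CO2, and were collected in logarithmic growth after 48 h, a split and a further 24 h. The labels state that replicate expansions were independent, so the p-values rest on the spread between expansions. They do not say how many vials of each bank were used, so bank and vial cannot be told apart.

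HIF is a transcription factor made of an oxygen-labile alpha subunit, HIF1A or EPAS1 (HIF-2 alpha), and the stable beta subunit ARNT. When oxygen is present, the prolyl hydroxylases EGLN1, EGLN2 and EGLN3 mark the alpha subunit for capture by VHL and destruction, and the asparaginyl hydroxylase HIF1AN blocks its binding of coactivators. When oxygen falls, HIF accumulates and switches on genes of glycolysis, iron handling and mitophagy, among them BNIP3, whose product sits in the outer mitochondrial membrane and recruits the autophagy machinery. Because the alpha subunits are controlled mainly as proteins, RNA levels do not report their amount.

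Libraries held 23413428 to 37119721 estimated counts. ATCC replicate 2 stood apart by base composition. Genes were split into 10 groups by GC content, and each library was compared with the mean of the other libraries of its bank. On the log2 scale the median deviation of ATCC replicate 2 was -0.87 in the group with the least GC and 0.33 in the group with the most. For ATCC replicate 1 these values were 0.58 and -0.22, and those of the DSMZ libraries stayed between -0.05 and 0.06 in every group. Of 10 myeloid and monocytic markers, 9 averaged at least 1 TPM in DSMZ and 10 in ATCC. The 1 that did not was the lipopolysaccharide co-receptor CD14, at 0.235 to 0.323 TPM in DSMZ and 0.873 to 1.79 TPM in ATCC. CD3E, MS4A1, CDH5 and ALAS2, defining markers of T cells, B cells, endothelium and red cells, were at 0 in all 6 libraries. Other genes of their lists were not all at 0. No T cell or endothelial gene averaged 1 TPM in either stock, and these lists summed to at most 1.01 and 1.59 TPM in any library. The epithelial list summed to 4.39 to 7.30 TPM in DSMZ and 3.42 to 5.35 TPM in ATCC. For the fibroblast list the sums were 2.43 to 3.68 TPM in DSMZ and 1.72 to 3.23 TPM in ATCC. The B cell list (4 of 5 genes at 1 TPM or more in DSMZ, 2 of 5 in ATCC) summed to 16.0 to 22.9 TPM in DSMZ and 3.46 to 6.69 TPM in ATCC, and the erythroid list (1 of 8 genes in either stock) to 4.81 to 5.80 TPM in DSMZ and 2.25 to 3.16 TPM in ATCC. Their part in the results was not tested.

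The clearest differences were in the mitophagy receptors, which were higher in DSMZ, in the sensor HIF1AN, also higher in DSMZ, and in EPAS1, which was lower in DSMZ. Of the 9 genes that passed the filter on low counts, 4 were higher in DSMZ (BNIP3, HIF1AN, BNIP3L and VHL) and 2 were lower (EPAS1 and ARNT) at an adjusted p below 0.05 in edgeR's quasi-likelihood test. Among all 14571 tested genes 49.8% passed, 24.1% higher and 25.7% lower in DSMZ, so a gene that passes is not unusual between these stocks. In CPM (counts scaled to library size) the 3 DSMZ and 3 ATCC libraries did not overlap in 7 of the 9 genes, against 62.3% of all tested genes. Fold changes below come from the fit on counts and are log2 values of DSMZ over ATCC. Levels are in TPM, which is scaled to transcript length as well as library size and can be compared between genes. In bulk RNA, fewer cells that express a gene and less RNA per cell cannot be told apart.

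The promoters of BNIP3, HIF1AN and EPAS1 are given because these 3 genes had the largest absolute fold changes among the tested genes with a listed promoter. Each runs 5′ to 3′ on the gene's strand and holds the 250 bases before and the first 50 bases of the RefSeq transcript (GRCh38.p14). Capitals mark ACGTG or GCGTG, the cores that HIF binds, on either strand (CACGT and CACGC on the other), and neighbouring matches may overlap.
BNIP3, chr10:131981874-131982173, minus strand: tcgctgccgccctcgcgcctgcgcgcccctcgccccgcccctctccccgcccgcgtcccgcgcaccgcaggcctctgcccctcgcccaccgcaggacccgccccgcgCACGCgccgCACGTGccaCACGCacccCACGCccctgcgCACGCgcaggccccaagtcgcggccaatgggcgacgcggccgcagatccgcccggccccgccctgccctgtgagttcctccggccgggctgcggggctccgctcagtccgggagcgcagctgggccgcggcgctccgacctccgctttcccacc
HIF1AN, chr10:100535693-100535992, plus strand: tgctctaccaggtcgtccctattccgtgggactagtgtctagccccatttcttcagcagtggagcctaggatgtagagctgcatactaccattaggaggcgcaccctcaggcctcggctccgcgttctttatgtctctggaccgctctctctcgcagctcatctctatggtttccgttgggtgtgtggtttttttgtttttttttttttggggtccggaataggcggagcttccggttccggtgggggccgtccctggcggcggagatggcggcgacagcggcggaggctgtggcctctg
EPAS1, chr2:46297157-46297456, plus strand: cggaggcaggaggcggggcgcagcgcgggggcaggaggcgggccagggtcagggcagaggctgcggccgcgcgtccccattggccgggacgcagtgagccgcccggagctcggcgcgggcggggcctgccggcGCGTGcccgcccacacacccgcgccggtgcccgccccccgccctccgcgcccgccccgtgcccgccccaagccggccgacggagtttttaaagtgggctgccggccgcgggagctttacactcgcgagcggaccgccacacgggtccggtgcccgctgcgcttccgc

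The BNIP3 window held 2 matches of ACGTG and 4 of GCGTG between 143 and 104 bases before the start, the HIF1AN window none and the EPAS1 window 1 of GCGTG. The 2 ACGTG matches of BNIP3 are the same 6 bases read on both strands. Over all 35116 promoters of that length, 21.4% held ACGTG, 36.5% held GCGTG and 0.923% held at least 6 matches in all. Of the other genes with a listed promoter, EGLN1 had 1 ACGTG, EGLN2 had 2 in 1 of its 2 windows, HIF1A had 1 GCGTG in 1 of its 2 windows, and ARNT and EGLN3 had none. As in BNIP3, the 2 matches of EGLN2 are the same 6 bases read on both strands. A match describes letters and does not show binding.

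BNIP3 (chromosome 10, 131966455 to 131982013) had 87.9, 87.7 and 127 TPM in the DSMZ libraries, against 18.4, 17.0 and 16.7 TPM in the ATCC libraries. All 3 DSMZ libraries lay far above all 3 ATCC libraries, and DSMZ replicate 3 lay above the other DSMZ libraries. This gave a log2 fold change of 2.60 (SE 0.16, edgeR adjusted p = 2.85e-05), a 6.06-fold difference and larger in size than that of 96.1% of tested genes. Without DSMZ replicate 3 it was 2.42. Of 39 processed pseudogenes of BNIP3, 9 had counts of their own, 611 in DSMZ beside 16284 for BNIP3 and 135 in ATCC beside 2474 for BNIP3. How reads were divided between BNIP3 and these copies was not tested.

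BNIP3L (also called NIX; chromosome 8, 26382898 to 26505636), the related receptor that clears mitochondria from maturing red cells, had 34.8, 35.8 and 42.9 TPM in DSMZ and 21.8, 17.5 and 17.7 TPM in ATCC. The groups did not overlap, and the difference was smaller than that of BNIP3, with a log2 fold change of 1.29 (SE 0.17, edgeR adjusted p = 0.000663). In DSMZ there were 2.64 ± 0.270 BNIP3 transcripts for each BNIP3L transcript by TPM, and in ATCC 0.919 ± 0.0644 (SD, n = 3 each). By TPM BNIP3L thus exceeded BNIP3 in each ATCC library, while BNIP3 exceeded BNIP3L in each DSMZ library. In ATCC the margin was narrow, with ratios of 0.846, 0.967 and 0.944 in replicates 1, 2 and 3. BNIP3L shares 330 of its 4307 exonic bases with PNMA2 on the opposite strand, which was at 2.92 TPM in DSMZ and 0.331 TPM in ATCC. The kit marks strand, but the labels and processing notes do not say whether the quantification used it, so reads of these bases cannot be told apart.

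**Figure D1:**
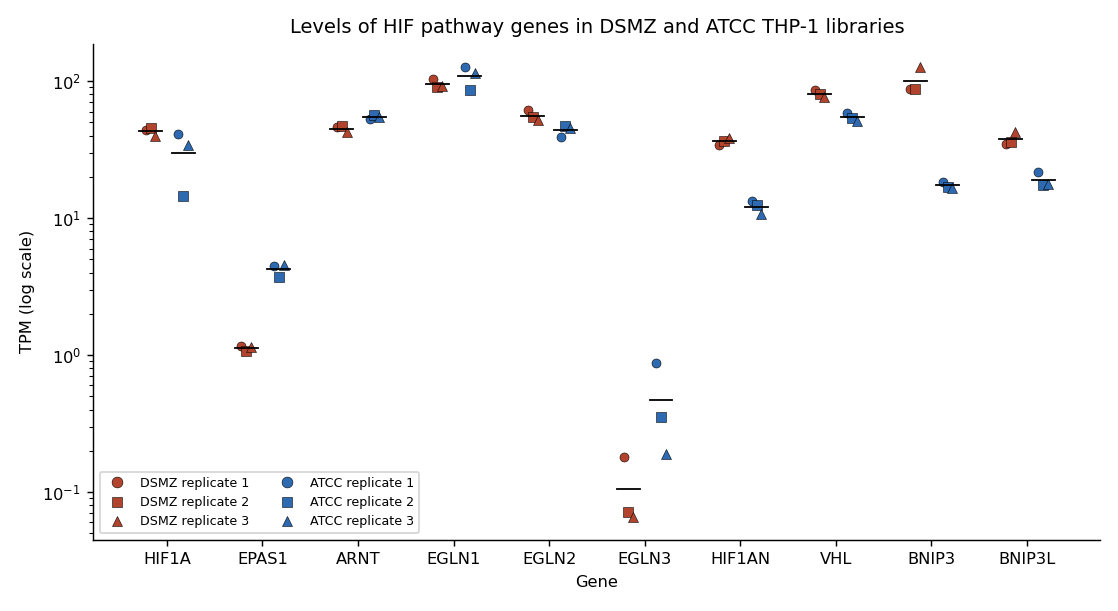
Level of each gene in each library, in TPM on a log scale, with DSMZ (red) left of ATCC (blue), a symbol for each replicate and a bar at the mean of 3 libraries. BNIP3, BNIP3L, HIF1AN, VHL and EGLN2 sit higher in all 3 DSMZ libraries, and EPAS1, ARNT and EGLN3 sit lower. Of these, EGLN2 did not pass the test on counts, and EGLN3 did not pass the filter on low counts. ATCC replicate 2 has the lowest HIF1A value (14.6 TPM).

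The alpha subunits differed from each other. HIF1A (chromosome 14, 61695513 to 61748259), the alpha subunit found in nearly all cells, had 44.2, 45.5 and 39.5 TPM in DSMZ and 41.3, 14.6 and 34.2 TPM in ATCC. By TPM the groups overlapped, since ATCC replicate 1 lay above DSMZ replicate 3, and ATCC replicate 2 was far below every other library. By CPM they did not, with 82.1 to 86.0 CPM in DSMZ and 34.6 to 81.4 CPM in ATCC. A log2 fold change of 0.47 (SE 0.27) did not pass (edgeR adjusted p = 0.187). HIF1A transcripts have a GC content of 40.4%, which is in the second lowest of the 10 groups, where the median deviation of ATCC replicate 2 was -0.57. Without ATCC replicate 2 the value was 0.20 (edgeR adjusted p = 0.0703), and without ATCC replicate 1 it was 0.72 and passed (adjusted p = 0.0319). With an offset for GC content, where 64% of all tested genes passed, it was 0.38 and passed (adjusted p = 0.0191). With that offset and without ATCC replicate 2, where 66.5% passed, it was 0.26 (adjusted p = 0.00431).

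EPAS1 (chromosome 2, 46293667 to 46386703), the alpha subunit known best from endothelium and also made by macrophages, had 1.17, 1.06 and 1.14 TPM in DSMZ and 4.46, 3.73 and 4.54 TPM in ATCC. It was scarce in both stocks, and every DSMZ library was below every ATCC library. Its log2 fold change was -2.24 (SE 0.14, edgeR adjusted p = 2.96e-05), 4.74-fold lower in DSMZ. By TPM there were 34.8 to 42.8 HIF1A transcripts for each EPAS1 transcript in DSMZ and 3.91 to 9.27 in ATCC, where ATCC replicate 2 gave the lowest ratio. A further alpha subunit, HIF3A, was barely present, with 91 counts over the DSMZ libraries and 90 over the ATCC libraries (log2 fold change -0.08, adjusted p = 0.826).

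ARNT (chromosome 1, 150809705 to 150876768), the shared beta subunit, had 46.0, 46.7 and 42.4 TPM in DSMZ and 53.3, 56.3 and 54.8 TPM in ATCC. The groups did not overlap, but the difference was small, with a log2 fold change of -0.30 (SE 0.08, edgeR adjusted p = 0.0198). This call did not survive leaving out ATCC replicate 3 or any 1 of the DSMZ libraries (adjusted p = 0.0640 to 0.113). Its paralogue ARNT2 was near the limit of detection, with 23 counts over the DSMZ libraries and 28 over the ATCC libraries. The related clock factor ARNTL was lower in DSMZ, at 13.2 ± 1.73 TPM against 16.9 ± 6.34 TPM in ATCC (log2 fold change -0.52, SE 0.14, adjusted p = 0.0163), but its TPM values overlapped between the stocks.

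Among the 3 sensors that passed the filter on low counts, HIF1AN (FIH; chromosome 10, 100529072 to 100559998) had the largest difference. It had 34.0, 36.4 and 38.5 TPM in DSMZ and 13.4, 12.5 and 10.7 TPM in ATCC, with the groups far apart and little spread within either. The log2 fold change was 1.40 (SE 0.09, edgeR adjusted p = 3.62e-05), or 2.63-fold. HIF1AN shares 325 of its 13950 exonic bases with NDUFB8, a respiratory chain gene on the opposite strand, which was at 173 TPM in DSMZ and 96.3 TPM in ATCC. As for BNIP3L, use of strand in the quantification is not stated, so reads of these bases cannot be told apart.

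EGLN1 (PHD2; chromosome 1, 231363751 to 231425044), the main HIF prolyl hydroxylase in most cells, had 103, 90.1 and 92.6 TPM in DSMZ and 128, 86.1 and 115 TPM in ATCC. The DSMZ values fell within the ATCC range, whose lowest value was ATCC replicate 2. The log2 fold change of -0.14 (SE 0.15) did not pass (edgeR adjusted p = 0.482). EGLN1 transcripts are of the lowest GC group (40.1%). Without ATCC replicate 2 the value was -0.29 and passed (adjusted p = 0.00506), where 64.1% of all tested genes passed.

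EGLN2 (PHD1; chromosome 19, 40798996 to 40808433), a prolyl hydroxylase found mostly in the nucleus, had 61.4, 54.8 and 51.8 TPM in DSMZ and 39.3, 47.2 and 45.6 TPM in ATCC. By TPM the groups did not overlap, and by CPM they did. Its log2 fold change was 0.29 (SE 0.14, edgeR adjusted p = 0.109), and 0.44 without ATCC replicate 2 (adjusted p = 0.000986). Its transcripts are in the highest GC group (62.0%), and 2012 of its 6577 exonic bases are shared with the readthrough gene RAB4B-EGLN2, at 3.78 TPM in DSMZ and 2.89 TPM in ATCC.

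EGLN3 (PHD3; chromosome 14, 33924231 to 34462774), the prolyl hydroxylase that HIF induces most strongly in many cells, was nearly absent. It had 1, 2 and 3 counts in the DSMZ libraries and 19, 14 and 7 counts in the ATCC libraries, or 0.0654 to 0.181 TPM in DSMZ and 0.189 to 0.873 TPM in ATCC. It did not pass the filter on low counts. Over the summed libraries the level in DSMZ was 0.138 times that in ATCC, with an exact 95% interval of 0.0477 to 0.326 that covers counting error only. With no filter on low counts, where 32.4% of 22647 genes passed, it was lower in DSMZ with an edgeR adjusted p of 0.00241.

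VHL (chromosome 3, 10141008 to 10152220), the subunit that recognises hydroxylated HIF, had 85.8, 80.5 and 77.1 TPM in DSMZ and 58.3, 53.9 and 50.8 TPM in ATCC. The groups did not overlap. Its log2 fold change was 0.56 (SE 0.10, edgeR adjusted p = 0.00219), a size that 57.4% of tested genes fell short of.

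By mean TPM the order in DSMZ was BNIP3, EGLN1, VHL, EGLN2, ARNT, HIF1A, BNIP3L, HIF1AN, EPAS1 and EGLN3. Neighbours in that order whose libraries overlapped were BNIP3 and EGLN1, ARNT and HIF1A, HIF1A and BNIP3L, and BNIP3L and HIF1AN. In ATCC the order was EGLN1, ARNT, VHL, EGLN2, HIF1A, BNIP3L, BNIP3, HIF1AN, EPAS1 and EGLN3, with overlap between ARNT and VHL, EGLN2 and HIF1A, HIF1A and BNIP3L, and BNIP3L and BNIP3. BNIP3 was therefore among the 2 highest in DSMZ and the seventh in ATCC. Summed over all transcripts, EGLN1 exceeded HIF1A in every library of both stocks. Across the prolyl hydroxylases, EGLN1 stood at 1.64 to 1.79 times EGLN2 by TPM in DSMZ and at 1.82 to 3.26 times in ATCC. However, 72.6% of EGLN1 TPM in DSMZ and 73.5% in ATCC was assigned to EGLN1-202, a short transcript without coding sequence. The coding transcript EGLN1-201 was at 26.1 ± 1.54 TPM in DSMZ and 29.3 ± 7.33 TPM in ATCC. The place of EGLN1 in these orders and ratios therefore rests largely on a noncoding transcript.

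Whole chromosomes differed between the stocks, so each gene was set beside its neighbours. The median log2 fold change over all tested genes was 0.01, but it was 1.03 on chromosome 10, where BNIP3 and HIF1AN lie, and -0.86 on chromosome 8, where BNIP3L lies. HIF1AN (1.40) was near the 96 tested genes within 5 Mb on either side, whose median was 1.05 and of which 86 were called higher in DSMZ and 1 lower. It exceeded 72.9% of them. BNIP3 (2.60) exceeded all 23 tested genes within 5 Mb, whose median was 0.99. BNIP3L went against its surroundings: the 68 genes within 5 Mb had a median of -0.88, with 51 called lower and 5 higher in DSMZ, and BNIP3L exceeded 95.6% of them. The part of the chromosome shift in each value was not tested.

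**Figure D2:**
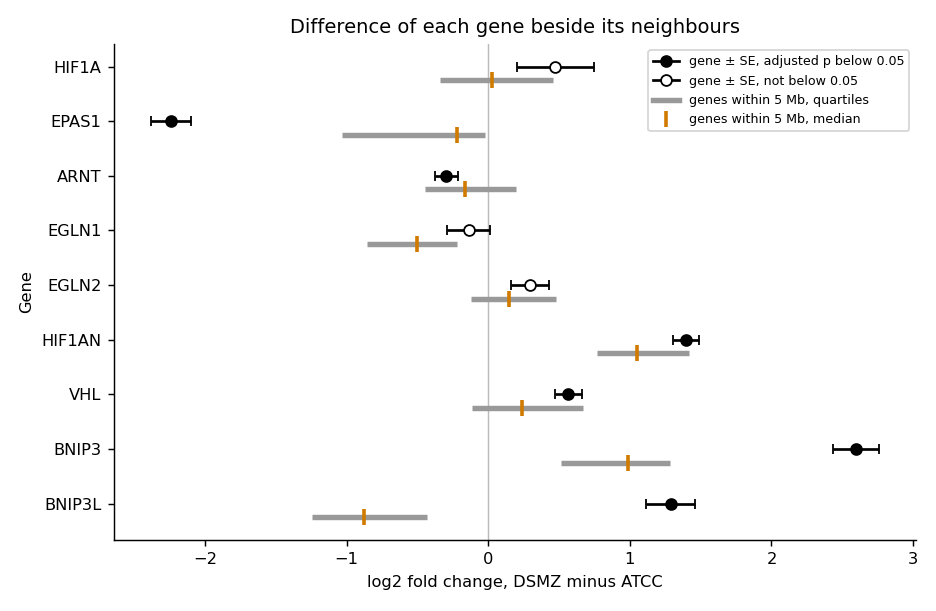
The log2 fold change (DSMZ minus ATCC) of the 9 tested genes with its standard error, filled where the adjusted p was below 0.05, above the quartiles (grey) and the median (orange) of the genes within 5 Mb. HIF1AN lies inside the quartiles of its neighbours (0.77 to 1.42), BNIP3, BNIP3L and EPAS1 lie far outside theirs, and HIF1A and EGLN1 just outside.

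EPAS1 (-2.24) stood below 36 of its 37 neighbours, or all but 2.70%, and their median was -0.22. VHL (0.56) lay among its 57 neighbours, with a median of 0.24 and quartiles of -0.12 and 0.67. ARNT (-0.30) was near the median of -0.17 of 169 neighbours. EGLN1 (-0.14) was above the median of -0.50 of its 64 neighbours, 40 of which were called lower in DSMZ and 3 higher. HIF1A and EGLN2 lay in stretches with medians of 0.02 and 0.15.

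**Figure D3:**
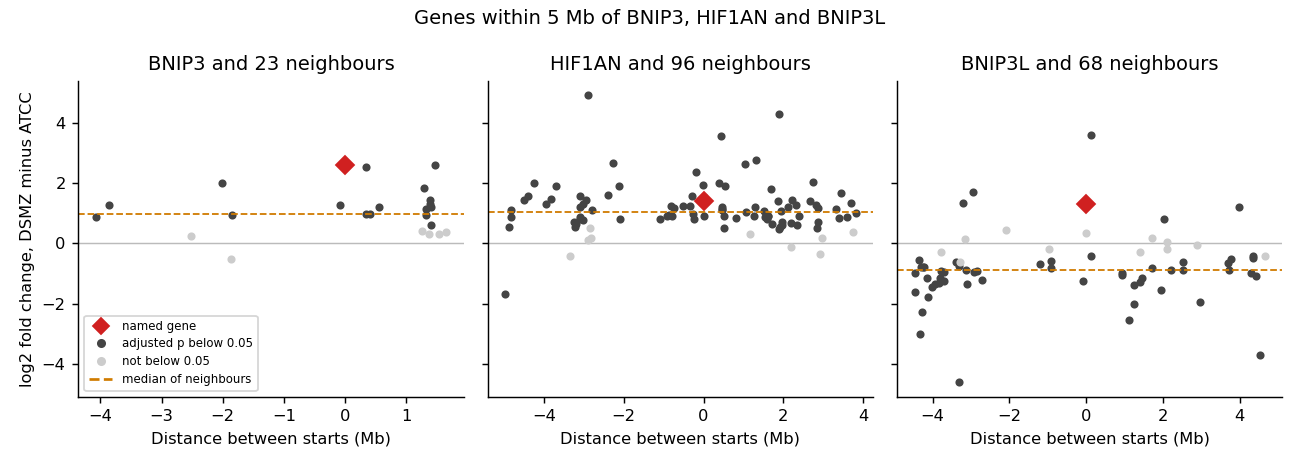
Log2 fold change (DSMZ minus ATCC) of genes within 5 Mb of BNIP3, HIF1AN and BNIP3L against the distance between gene starts in Mb, dark where the adjusted p was below 0.05, with the named gene as a red diamond and the neighbours' median dashed. BNIP3 tops its 23 neighbours, HIF1AN sits among 96 that are mostly higher in DSMZ, and BNIP3L is high among 68 that are mostly lower.

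The transcripts listed for each gene were tested in the same way. Of 84 transcripts of the 10 genes, 41 passed the filter, 10 were higher in DSMZ and 1 was lower, where 11.2% of all 54836 tested transcripts passed (5.04% higher and 6.21% lower). Transcripts of 1 gene share sequence, so their estimates depend on each other, and the number passing moved between 1587 and 7010 of all transcripts when 1 library was left out, against 6167. It was lowest without DSMZ replicate 2, and 1798, 1752, 2169 and 4095 without DSMZ replicate 1, DSMZ replicate 3, ATCC replicate 3 and ATCC replicate 1. The BNIP3 difference was clear in BNIP3-201, the transcript with the longest coding sequence, at 59.4, 63.6 and 82.2 TPM in DSMZ and 12.0, 11.4 and 10.4 TPM in ATCC (log2 fold change 2.56, SE 0.17, edgeR adjusted p = 0.00205). BNIP3-204 differed by a like amount (2.40, SE 0.29), so BNIP3-201 made up 68.4 ± 3.84% of BNIP3 TPM in DSMZ and 64.9 ± 2.64% in ATCC (SD, n = 3 each).

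HIF1AN was higher in DSMZ in all 4 of its tested transcripts. The long coding transcript HIF1AN-201, with 86.7% of the gene's counts in DSMZ and 87.1% in ATCC, had 7.69, 7.53 and 7.63 TPM in DSMZ and 3.03, 3.01 and 2.86 TPM in ATCC (log2 fold change 1.32, SE 0.09, edgeR adjusted p = 0.00233). The short HIF1AN-204, which has no coding sequence, had 4.06, 2.50 and 1.94 TPM in DSMZ and was listed at 0 in all 3 ATCC libraries. By TPM HIF1AN-201 made up only 21.0 ± 1.41% of the gene in DSMZ and 24.5 ± 2.07% in ATCC. The short HIF1AN-203, annotated for nonsense-mediated decay, made up 41.1 ± 7.34% in DSMZ and 29.9 ± 1.96% in ATCC. It was higher in DSMZ (log2 fold change 2.01, SE 0.30, edgeR adjusted p = 0.0129). The TPM level of HIF1AN therefore rests largely on short transcripts. The short coding HIF1AN-205 made up 29.6 ± 3.01% of the gene's TPM in DSMZ and 44.9 ± 1.43% in ATCC, shares whose libraries did not overlap and which were not tested.

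For VHL most of the estimated RNA in both stocks was assigned to VHL-202, which lacks exon 2 of the longest coding form VHL-201 (123 bases, chromosome 3, 10146514 to 10146636) and is annotated with 516 coding bases against 639. VHL-202 had 49.7, 47.0 and 46.0 TPM in DSMZ and 38.4, 34.1 and 31.4 TPM in ATCC. Its share was 58.7 ± 0.912% in DSMZ and 63.7 ± 2.06% in ATCC (SD, n = 3 each). VHL-201 had 16.6, 16.7 and 14.5 TPM in DSMZ and 8.56, 12.6 and 9.42 TPM in ATCC. The noncoding VHL-203 passed the test (log2 fold change 0.86, SE 0.20, edgeR adjusted p = 0.0428), whereas VHL-201 (0.59, adjusted p = 0.128) and VHL-202 (0.42, adjusted p = 0.0503) did not.

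**Figure D4:**
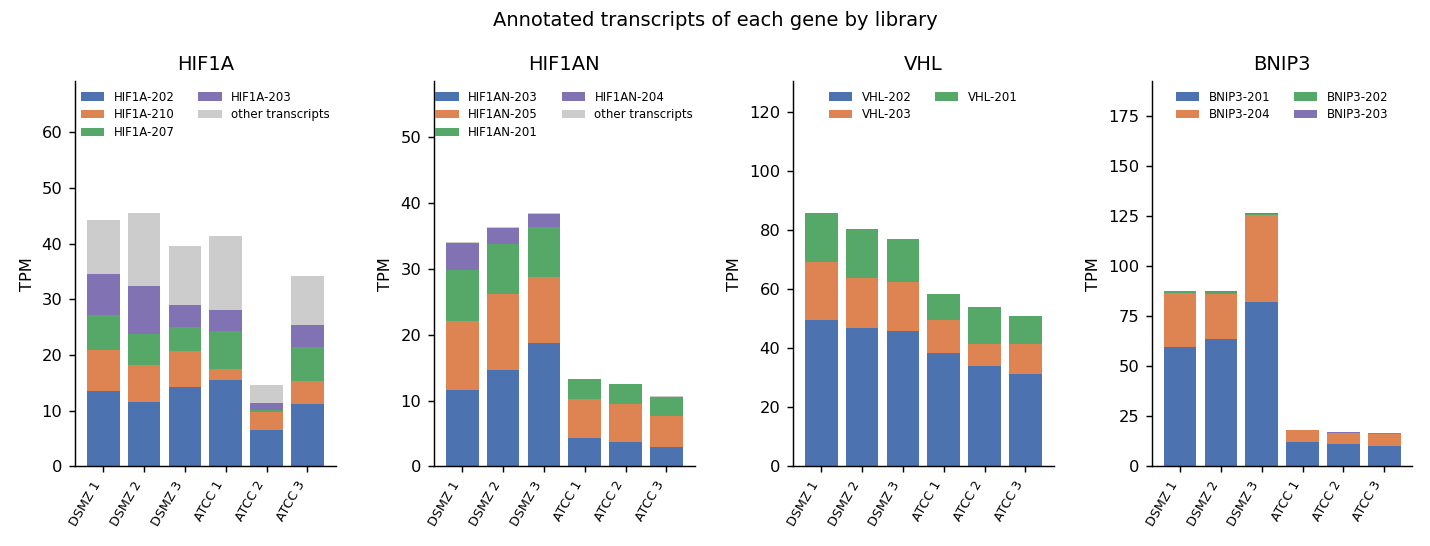
TPM assigned to the annotated transcripts of HIF1A, HIF1AN, VHL and BNIP3 in each library, stacked, with the 3 DSMZ libraries left of the 3 ATCC libraries. BNIP3-201 and VHL-202 make up more than any other transcript of their genes in all 6 libraries, HIF1AN-204 appears in the DSMZ bars only, and the HIF1A bar of ATCC replicate 2 is the shortest.

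EPAS1-201, with the longest coding sequence of its gene, had 0.785, 0.778 and 0.510 TPM in DSMZ and 3.33, 3.59 and 4.54 TPM in ATCC, and was lower in DSMZ (-2.52, SE 0.24, edgeR adjusted p = 0.00465). Of BNIP3L, the longest, BNIP3L-201, differed by 1.51 (SE 0.24, adjusted p = 0.0169) and BNIP3L-202 by 0.86 (SE 0.19, adjusted p = 0.0395). None of the tested transcripts of HIF1A (9), ARNT (6), EGLN1 (2) and EGLN2 (9) passed. HIF1A-202, which had the highest level among HIF1A transcripts in each library, was at 13.5, 11.6 and 14.2 TPM in DSMZ and 15.5, 6.54 and 11.2 TPM in ATCC.

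Genes that HIF is known to induce were mostly higher in DSMZ. Of 27 tested HIF targets of glycolysis and fuel use, 16 were higher and 3 lower in DSMZ, with a median log2 fold change of 1.00, beside 24.1% and 25.7% of all tested genes and their median of 0.01. The largest differences were in aldolase C (ALDOC, 50.6 ± 10.5 TPM in DSMZ and 4.16 ± 2.00 TPM in ATCC), the enolase ENO2 (8.02 ± 1.59 and 1.52 ± 0.559 TPM in DSMZ and ATCC), PFKFB4, which sets glycolytic flux (28.4 ± 4.48 TPM in DSMZ and 4.03 ± 1.15 TPM in ATCC), and PDK1, which keeps pyruvate out of the mitochondria (30.4 ± 8.24 TPM in DSMZ and 8.61 ± 2.23 TPM in ATCC; SD, n = 3 each). Their log2 fold changes were 3.68, 3.56, 2.54 and 1.97, with edgeR adjusted p between 4.74e-06 and 0.000332. Not all well-known glycolytic targets were higher in DSMZ, as 3 genes named after their values were seen show. Phosphoglycerate kinase PGK1, on chromosome X, was lower in DSMZ (-0.64, SE 0.12, edgeR adjusted p = 0.00349). The glucose transporter SLC2A1 (0.14, SE 0.16, adjusted p = 0.478) and lactate dehydrogenase LDHA (0.16, SE 0.13, adjusted p = 0.331) did not pass.

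Of 41 other tested HIF targets besides the 10 genes above, 23 were higher and 6 lower in DSMZ, and their median fold change was 0.69 (log2). Among them were the stanniocalcin STC2 (2.50, SE 0.26), the fucosyltransferase FUT11 on chromosome 10 (2.13, SE 0.11), the transcriptional repressor BHLHE40 (2.02, SE 0.20) and the collagen lysyl hydroxylase PLOD2 (28.3 ± 3.76 TPM in DSMZ and 6.64 ± 2.35 TPM in ATCC; 2.00, SE 0.31). The angiogenic factor VEGFA, named after its value was seen, was higher in DSMZ by a small amount (0.37, SE 0.13, edgeR adjusted p = 0.0399). ADM, CA9, EPO, ANGPTL4, BHLHE41 and RORA had at most 8 counts in any library and were not tested. On the chromosomes whose median stayed within 0.5 of 0, 13 of 21 glycolytic targets (61.9%) and 18 of 34 others (52.9%) were higher in DSMZ, against 23.4% of all 13078 tested genes there. That limit, which leaves out chromosomes 8, 10 and X, was chosen after the values were seen.

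HIF's coactivators and antagonists went both ways, with 9 of 18 higher and 5 lower in DSMZ and a median of 0.42. In all 77.8% of them were called, against 49.8% of all tested genes. BHLHE40 and HEXIM1 (1.09, SE 0.10), an inhibitor of transcriptional elongation that also restrains HIF1A, were higher in DSMZ. CITED4, which binds the coactivators that HIF1A uses, was at 110 ± 16.4 TPM in DSMZ and 260 ± 42.9 TPM in ATCC (-1.22, SE 0.16), and COMMD1, a scaffold that hinders the pairing of HIF1A with its partner, was lower in DSMZ as well (-1.05, SE 0.14). In edgeR's test the adjusted p values of BHLHE40, HEXIM1, CITED4 and COMMD1 lay between 0.000113 and 0.000677.

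The partners of VHL differed among themselves. Of 24 tested genes of the VHL ligase and of HIF protein turnover besides VHL, 8 were higher and 3 lower in DSMZ, with a median of 0.20, a share (45.8%) close to that of all genes. The scaffold cullin CUL2, on chromosome 10, was at 48.8 ± 4.01 TPM in DSMZ and 20.7 ± 8.88 TPM in ATCC (1.08, SE 0.26), and the ubiquitin-conjugating enzyme UBE2D1, also on chromosome 10, differed by 1.18 (SE 0.21). Elongin C (ELOC), which joins VHL to the cullin and lies on chromosome 8, was at 150 ± 3.46 TPM in DSMZ and 353 ± 9.80 TPM in ATCC (-1.15, SE 0.09, edgeR adjusted p = 5.16e-05). The SUMO protease SENP1, which stabilises HIF1A, was higher in DSMZ (1.46, SE 0.15).

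Other enzymes that use oxygen together with 2-oxoglutarate or act on thiols had 11 of 29 tested members higher and 7 lower in DSMZ, with a median of 0.17, and 62.1% called against 49.8% of all tested genes. Several of them, PLOD2 and P4HA1 included, were also counted among the other HIF targets above. Higher in DSMZ were the DNA demethylase TET1 (4.02 ± 0.600 TPM in DSMZ and 0.754 ± 0.290 TPM in ATCC; 2.46, SE 0.28), PLOD2, the collagen prolyl hydroxylase P4HA1 (117 ± 13.4 TPM in DSMZ and 30.7 ± 2.65 TPM in ATCC; 1.98, SE 0.12) and the histone demethylase KDM5A (1.63, SE 0.12). TET1 and P4HA1 lie on chromosome 10. Enzymes of 2-oxoglutarate, succinate and fumarate, metabolites that feed or inhibit these oxygenases, had 4 of 20 higher and 5 lower in DSMZ, with a median of 0.11, and their 45% called is near the share of all tested genes. The subunits of isocitrate dehydrogenase 3 parted, IDH3B being higher in DSMZ (1.39, SE 0.12) and IDH3G, on chromosome X, lower (-1.12, SE 0.15). SUCLG1 (-0.82, SE 0.10) and fumarase (FH; 118 ± 4.50 TPM in DSMZ and 202 ± 9.80 TPM in ATCC; -0.79, SE 0.08) were lower in DSMZ. Of this list 16 members passed without ATCC replicate 2, and 5 without ATCC replicate 3 or without DSMZ replicate 2, against 9. Of all tested genes 64.1%, 39.8% and 37.1% passed in these 3 settings, against 49.8%.

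**Figure D5:**
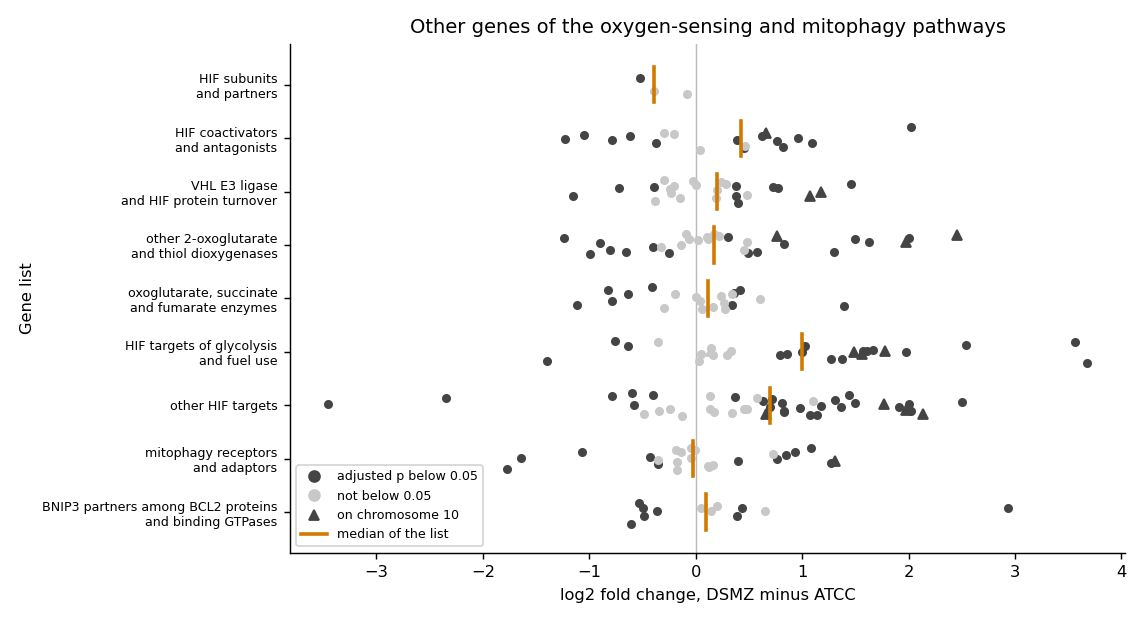
Log2 fold change (DSMZ minus ATCC) of each tested gene of 9 lists, without the 10 genes themselves, dark where the adjusted p was below 0.05, triangles for genes on chromosome 10, and the list median in orange. The medians of the HIF target lists are 1.00 and 0.69, and those of the other lists lie between -0.39 and 0.42.

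Of the remaining mitophagy receptors and adaptors, 7 of 24 were higher and 5 lower in DSMZ, with a median of -0.02. The share called, 50%, is that of all tested genes (49.8%). The adaptor optineurin (OPTN, on chromosome 10; 1.30, SE 0.15), the autophagosome protein MAP1LC3A (1.27, SE 0.22) and prohibitin 2 (PHB2; 197 ± 7.29 TPM in DSMZ and 95.4 ± 6.81 TPM in ATCC; 1.08, SE 0.11) were higher in DSMZ. NLRX1, a mitochondrial member of the NLR family, was at 7.73 ± 1.35 TPM in DSMZ and 28.1 ± 0.697 TPM in ATCC (-1.64, SE 0.14, edgeR adjusted p = 8.61e-05). The receptor FUNDC1, another that responds to hypoxia, had at most 1 count in any library and was not tested. Without DSMZ replicate 1 or DSMZ replicate 2, 9 of the 26 tested genes of this list, BNIP3 and BNIP3L included, passed, against 14. Of all tested genes 38.9% and 37.1% passed in these settings, against 49.8%.

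Proteins that bind BNIP3, or belong to the BCL2 family it resembles, had 3 of 12 genes higher and 5 lower in DSMZ, with a median of 0.10. Among all tested genes 24.1% were higher and 25.7% lower. In all 66.7% of this list were called, against 49.8% of all tested genes. The survival factor BCL2 was at 40.9 ± 4.74 TPM in DSMZ and 65.6 ± 9.77 TPM in ATCC (-0.61, SE 0.15, edgeR adjusted p = 0.0113). RHEB, the GTPase that activates mTORC1 and is bound by BNIP3, was at 187 ± 4.40 TPM in DSMZ and 277 ± 6.05 TPM in ATCC (-0.53, SE 0.08, adjusted p = 0.00126). BAX (-0.50, SE 0.13) and BCL2L1 (-0.49, SE 0.14) were also lower in DSMZ. Without DSMZ replicate 2 or 3, 4 and 5 members of this list passed, against 8. The share of all tested genes that passed fell to 37.1% and 38.2% in these settings.

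Among 9612 protein-coding genes with a mean of at least 8 CPM, the profile of SCD, the stearoyl-CoA desaturase, was nearest to that of BNIP3 over the 6 libraries, with a root mean square difference of 0.12 in centred log2 CPM. COCH (0.17), the alarmin S100A8 (0.17) and PFKFB4 (0.18) followed. SCD, like BNIP3, lies on chromosome 10 and was highest in DSMZ replicate 3, at 652, 688 and 886 CPM in DSMZ and 151, 140 and 142 CPM in ATCC. COCH, S100A8 and PFKFB4 lie on chromosomes 14, 1 and 3.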

How the data were processed

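Per the labels' protocols, poly(A) RNA of 6 THP-1 cultures was extracted with TRIzol and RNeasy columns and prepared with a stranded KAPA kit. Per the submitters' processing notes, bcl2fastq 2.20, Trimmomatic 0.35 and kallisto 0.43.0 were used with GRCh38. No annotation release is named there. The authors deposited, for each transcript and library, estimated counts (raw, with fractions), TPM (scaled to length and to 1 common total) and effective lengths, per the file headers.

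Transcripts were assigned to GENCODE 29 symbols, 163714 (91.0%) by identifier and 14387 by the symbol listed for copies on alternative sequences; 1872 without a gene (0.177 to 0.196% of counts) were left out. Estimated counts were summed per gene and rounded. Genes were tested with edgeR 4.0.16 in R 4.3.3 (filterByExpr, TMM, quasi-likelihood F test with the bank as the only term, Benjamini-Hochberg over all tested genes, threshold 0.05), and transcripts likewise. edgeR estimated 15.9% biological variation between cultures, and each SE was derived from the fold change and F (absolute log2 value over the root of F). The 10 genes, the 9 gene lists and the tests were chosen with earlier results of these data known, and no set test was run. The lists overlap, so some genes, such as BHLHE40 and PLOD2, are counted in several of them. From each list the text names up to 4 genes past the threshold with the largest absolute fold changes and a mean of at least 1 CPM. Counting intervals have 95% confidence. No 2 libraries of a bank agreed within sampling noise (chi-square per degree of freedom at least 4.48). On simulated counts of 14388 genes, 1.5-fold changes were found for 13 of 67 genes, 2-fold for 54 of 67 and 4-fold for 65 of 66, and 4 unchanged genes were called. On 53055 simulated transcripts these numbers were 7 of 67, 37 of 67 and 62 of 66, and 2 unchanged ones were called. Both simulations gave every gene or transcript the same 15.9% variation, had no GC trend and changed only a small part of the features. Error rates in the real data may therefore differ. Alternatives were other normalizations, DESeq2 1.42.0, limma 3.58.1 on log2(TPM + 0.5) and log2(TPM + 0.1), other filters, offsets for effective length and GC content (available for 99.9% of tested genes), other sets of transcripts, a replicate block and leaving out each library. The GC offset without ATCC replicate 2 was added after seeing the data. Promoters are from RefSeq (GRCh38.p14) and matched 8 of the 10 genes. Figures were drawn with matplotlib 3.10.9.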

Additional observations from a re-analysis of the deposited data

How the results depend on the processing

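EPAS1, HIF1AN, VHL, BNIP3 and BNIP3L kept their direction and stayed past the threshold under all 20 alternatives. ARNT did not pass without the filter on low counts (-0.30), with the effective length offset (-0.27) or with the replicate block (-0.30), and ranged from -0.34 to -0.25 when single libraries were left out. With the GC offset HIF1A (0.38), EGLN1 (-0.30) and EGLN2 (0.46) passed, likewise with the replicate block and the GC offset (0.39, -0.30 and 0.46) and with the GC offset and without ATCC replicate 2 (0.26, -0.23 and 0.47). EGLN2 also passed with limma on log2(TPM + 0.5) (0.34) and log2(TPM + 0.1) (0.35). Leaving out 1 library gave 0.20 to 0.72 for HIF1A, -0.29 to -0.039 for EGLN1 and 0.16 to 0.44 for EGLN2, and passed for HIF1A without ATCC replicate 1 and for EGLN1 and EGLN2 without ATCC replicate 2. The cause of these changes was not tested.

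Genes past the threshold numbered 5507 to 9508 when 1 library was left out, against 7261. These were 37.1% to 64.1% of the genes tested, against 49.8%. The 6 tested subunits and partners, counted here with HIF1A, EPAS1 and ARNT, had 1 call with the effective length offset. In that setting 44% of all tested genes passed. They had 1 to 4 calls with 1 library left out, against 3. The oxoglutarate enzymes had 16 calls with the GC offset (64% of all tested genes passed) and 17 with the replicate block and GC offset (63.5%). They had 18 with the GC offset and without ATCC replicate 2 (66.5%), and 5 to 16 with 1 library left out, against 9. Mitophagy genes, BNIP3 and BNIP3L included, had 9 to 17 calls and BNIP3 partners 4 to 11 with 1 library left out. Transcript calls are the least stable: of 6167, counts were 3803 without the filter, 21 with the replicate block, and 1587 to 7010 with 1 library left out. Whether replicate numbers pair the libraries is not known. Same-numbered libraries deviated together with correlations of 0.01, 0.08 and 0.16. These cannot settle it, because the deviations of the ATCC libraries also hold their GC trend. The main test has no block, and results with the block are given only here. Depth limits EGLN3, HIF3A and ARNT2, where 0 counts over the 3 libraries of a bank would allow 0.0338 CPM in DSMZ and 0.0368 CPM in ATCC.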
